A study of Bos taurus with 8 samples.

Results

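Expression of the insulin-like growth factor (IGF) system was examined in primary cultures of bovine skeletal muscle cells. The system was taken as 10 genes, namely the ligands IGF1 and IGF2, the receptors IGF1R and IGF2R, and the binding proteins IGFBP2, IGFBP3, IGFBP4, IGFBP5, IGFBP6, and IGFBP7. A probe was assigned to a gene when the RefSeq accession that the scanner files gave for it carried that symbol. IGF2, IGF2R, IGFBP2, IGFBP3, IGFBP4, and IGFBP6 had a matched probe each, so 6 of the 10 genes could be followed among 7788 named genes. IGF1, IGF1R, IGFBP5, and IGFBP7 had no probe matched in this way and were not analysed here. A missing match may lie in the naming, since probes listed under other accessions could not be named, and it says nothing about the expression of these genes.

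The donors were bulls slaughtered at 15 months of age, 4 each of Limousin (LIM) and Hereford (HER), which are beef breeds, and of the dairy breed Holstein Friesian (HF), and the muscle was the semitendinosus. None of the cultures was treated. All grew in medium with fetal bovine serum and were frozen while proliferating, at 80% confluence, and only RNA with an integrity number above 9 was used. RNA of a beef breed and of HF was hybridized to the same two-colour array, with 4 arrays of LIM in Cy5 against HF in Cy3 and 4 arrays of HER in Cy3 against HF in Cy5. The question was whether gene expression of muscle cells that are still dividing differs between beef and dairy breeds. Myoblasts had been enriched by repeated preplating, which lets faster-adhering cells settle out, and by the study's methods the cultures still held a minority of other cells. In such bulk RNA, a different number of cells of one type and a different amount of transcript per cell cannot be told apart.

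IGF1 and IGF2 are small secreted peptides that drive the proliferation, survival, and differentiation of muscle cells, mainly through the tyrosine kinase receptor encoded by IGF1R. IGF2R, the cation-independent mannose 6-phosphate receptor, carries newly made lysosomal enzymes to the endosome and takes up IGF2 for degradation without a kinase of its own. The IGF binding proteins are secreted and hold the ligands in the medium and in the matrix, so that they can delay or favour receptor binding, and proteases release the ligands from them. In muscle, IGF2 is an autocrine factor of early differentiation, and the binding proteins are made by myoblasts as well as by connective tissue cells.

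Each array, numbered here by its replicate, compared a beef breed with HF directly, and values are given as log2 of beef over HF, where 1 is a doubling and 0 is no difference. Channel intensities are the scanner's brightness values after its background and dye correction. They compare the same probe between channels and give no order of level between genes. All 6 probes were well above background in all 16 channels. Each was spotted 2 times per array, and the median gap between the ratios of such spots was 0.034 on the log2 scale. The largest gap was 0.52, for IGFBP2. A difference was called when the Benjamini-Hochberg adjusted p of limma was at most 0.05 over 17622 tested probes and the fold change was at least 1.3. LIM and HER were set against the same breed, so that the 2 comparisons share HF as the reference and are not independent of each other. All arrays of a comparison shared 1 slide and the same dye assignment, so that the effects of these and of breed cannot be told apart. In the mean of both comparisons, called beef minus HF here, a dye bias of equal size on both slides cancels, because the dyes were reversed between them. The fit took all arrays as independent. The SE, interval, and adjusted p of beef minus HF therefore ignore any HF culture used on both slides and may understate the uncertainty.

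The cultures differed in more than the IGF system. Of the myoblast markers, 6 of 8 had a tested probe (MYF5, MYOD1, CDH15, NCAM1, ITGA7, and DES), each well above background in all 16 channels, and 4 were called higher in both beef breeds. All 8 tested markers of differentiating muscle were also called higher in both. Their summed intensity ranged from 13786 to 102181 in beef channels and from 1688 to 9442 in HF channels. Of 9 tested fibroblast and connective tissue markers, 4 were higher in both, among them the collagen gene COL1A1, and 1, the fibroblast receptor gene PDGFRA, was lower. Summed over all 9, their intensity was 279634 to 789349 in beef channels and 55508 to 227804 in HF channels. This sum was carried by the collagens and gives no share of cells. Of the 9, 5 were called higher and 1 lower in LIM, and 5 higher and 2 lower in HER. Smooth muscle, adipocyte, and leukocyte lists had 1 marker each called higher in both breeds, of 5, 5, and 2 tested, and the endothelial list had 0 of 3. The part of this cell make-up in the differences of the IGF genes was not tested.

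Of the 6 genes, 3 were called higher in LIM than in HF, and the same 3, IGF2R, IGFBP2, and IGFBP4, were called higher in HER. None of the 6 was called lower. Over all tested probes, 16.1% were called higher in LIM, 10.4% in HER, and 7.55% in both. The shares called lower were 18.3% in LIM, 14.0% in HER, and 9.31% in both. For beef minus HF, 3 of 6 were called higher, against 17.7% of all probes called higher and 20.4% called lower. The median log2 difference of the 6 genes was 0.83 in LIM and 0.87 in HER, while the median of all tested probes was -0.0098 and -0.055. With 6 genes, these medians describe the genes followed here and not the system as a whole.

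**Figure D1:**
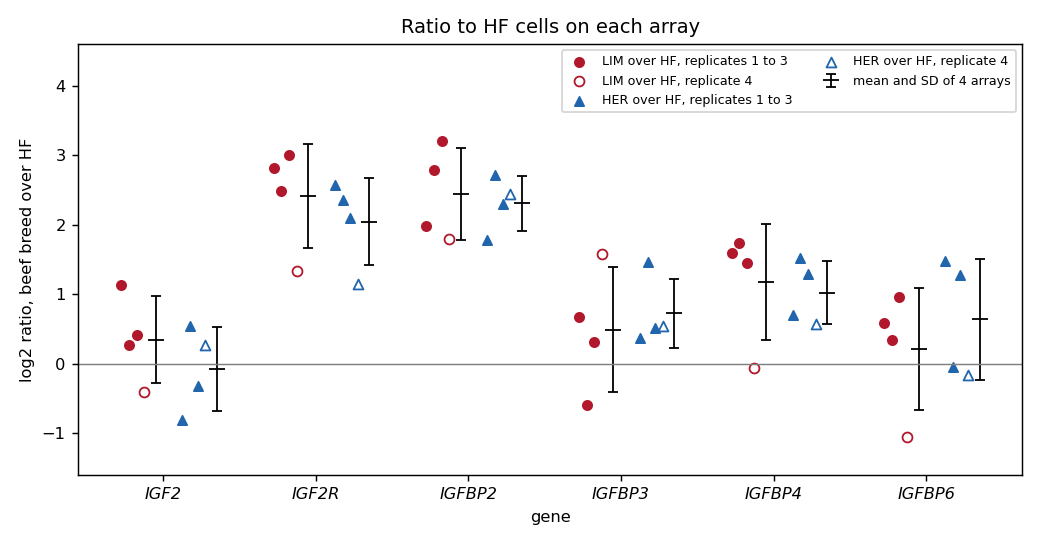
Ratio to HF of the 6 IGF system genes on each array. The vertical axis is log2 of beef over HF, circles are LIM arrays and triangles HER arrays, open symbols are the arrays numbered 4, and black bars give the mean and SD of 4 arrays. IGF2R and IGFBP2 lie above 0 on all 8 arrays, IGFBP4 and IGFBP3 on 7 of 8, and IGF2 and IGFBP6 on both sides of 0.

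IGF2 was the ligand that could be followed, and its difference between beef and HF cells lay within the spread of the arrays and passed the test in neither breed. Its log2 ratio to HF was 1.13, 0.27, 0.41, and -0.41 on the LIM arrays numbered 1 to 4. On the HER arrays it was -0.81, 0.54, -0.32, and 0.27. LIM cells were higher on 3 of 4 arrays and HER cells on 2 of 4. Intensities of IGF2 ran from 2515 to 11886 in LIM cells and from 3356 to 5517 in the HF cells beside them. In HER cells the range was 2033 to 4566, and in the HF cells of that slide 2015 to 3629, so both pairs of groups overlapped. The mean difference was 0.35 ± 0.63 in LIM (SD, n = 4, limma adjusted p = 0.351) and -0.081 ± 0.61 in HER (SD, n = 4, limma adjusted p = 0.847). The 95% confidence interval of the beef minus HF difference ran from -0.31 to 0.58, and a change of up to 1.49-fold upward or to 0.806 of the HF level lies within it. The mean in HER changed sign when HER replicate 1 or HER replicate 3 was left out, to 0.16 and 0.00018.

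IGF2R was several-fold higher in both beef breeds. The LIM arrays numbered 1 to 4 gave log2 ratios of 2.82, 2.49, 3.01, and 1.34, and the HER arrays gave 2.57, 2.35, 2.10, and 1.15. All 8 arrays showed more IGF2R transcript in beef cells, and array 4 of each breed gave the smallest ratio. Intensities were 16764, 13938, 15197, and 12056 in LIM cells, against 2372, 2487, 1893, and 4767 in HF cells on the same arrays. In HER cells they were 10639, 10694, 5120, and 6215, against 1788, 2095, 1193, and 2805 in HF cells. Beef and HF channels did not overlap on either slide, and the HF culture on array 4 was the highest of the HF channels on its slide. The share of all tested probes without such overlap was not counted. A lack of overlap, here or for the genes below, is therefore not shown to be particular to these genes. The difference was 2.41 ± 0.75 in LIM (SD, n = 4), a 5.32-fold higher level with a 95% confidence interval of 3.29 to 8.62 (limma adjusted p = 0.00103). In HER it was 2.04 ± 0.63 (SD, n = 4), which is 4.12-fold with an interval of 2.55 to 6.67 (limma adjusted p = 0.0049). Beef minus HF was 2.23 ± 0.21 (SE, limma adjusted p = 0.000244). With normexp, another background correction, run on the measured local backgrounds and followed by loess dye normalization, the HER difference was 1.46 and was not called (limma adjusted p = 0.179).

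**Figure D2:**
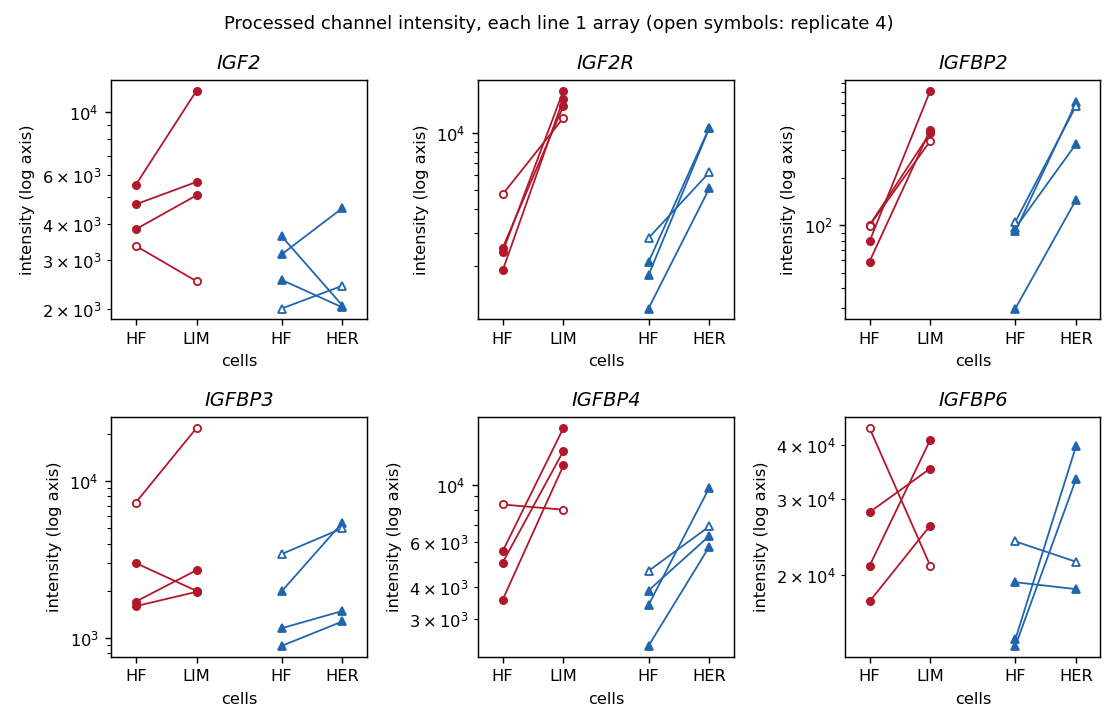
Processed channel intensity of each IGF system gene in HF and beef cells. Each line joins the 2 channels of 1 array, the vertical axes are logarithmic and differ between genes, red circles are the LIM slide and blue triangles the HER slide, and open symbols are the arrays numbered 4. All lines rise for IGF2R and IGFBP2, and the HF value of array 4 is the highest HF value of its slide for IGF2R, IGFBP3, IGFBP4, and IGFBP6.

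IGFBP2, a binding protein of both ligands that is prominent in fetal tissues, was also higher in both beef breeds. Its log2 ratio was 1.98, 2.78, 3.20, and 1.80 on the LIM arrays and 1.78, 2.71, 2.30, and 2.45 on the HER arrays. The lowest of the 8 ratios was 3.42-fold, on HER array 1, and array 4 of HER did not stand below the others. The signal was weak in HF cells, with 100.2, 58.9, 79.1, and 99.6 on the LIM slide and 96.2, 92.1, 29.6, and 105.4 on the HER slide. LIM cells gave 386.7, 405.3, 717.0, and 343.9, and HER cells 329.4, 603.3, 145.7, and 574.4. Every beef channel of a slide was brighter than every HF channel of it. The difference was 2.44 ± 0.66 in LIM (SD, n = 4, 5.42-fold, limma adjusted p = 0.000683) and 2.31 ± 0.39 in HER (SD, n = 4, 4.95-fold, limma adjusted p = 0.00249). Beef minus HF was 2.37 ± 0.17 (SE, limma adjusted p = 0.000122). The size of the ratio depended on the background step. With normexp correction on the measured local backgrounds, it was 1.31 in LIM and 0.76 in HER, and the HER difference was then not called (limma adjusted p = 0.29).

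IGFBP4, which binds both ligands and is cut by the protease pappalysin, was higher in beef cells by a smaller factor. The LIM arrays gave log2 ratios of 1.59, 1.74, 1.44, and -0.067, and the HER arrays 0.71, 1.52, 1.28, and 0.57. Beef cells were higher on 7 of 8 arrays, and the exception was LIM array 4. There, LIM cells gave 7994 and HF cells 8378, whereas HF cells on the other LIM arrays gave 5510, 3567, and 4981 and LIM cells 16630, 11889, and 13531. The LIM and HF channels therefore overlapped. In HER cells the intensity was 6321, 9730, 5742, and 6881, above the HF values of 3875, 3402, 2359, and 4620 without overlap. The mean difference was 1.18 ± 0.84 in LIM (SD, n = 4, 2.26-fold, limma adjusted p = 0.0164) and 1.02 ± 0.45 in HER (SD, n = 4, 2.03-fold, limma adjusted p = 0.0381). Beef minus HF was 1.10, with a 95% confidence interval of 0.62 to 1.58 (limma adjusted p = 0.00338). The calls in the single breeds were close to the threshold. That in LIM was lost without LIM replicate 1, 2, or 3 (limma adjusted p of 0.064, 0.0694, and 0.0701). That in HER was lost without HER replicate 1, 2, 3, or 4 or LIM replicate 3 (limma adjusted p from 0.0537 to 0.147). It was also lost with normexp on the measured backgrounds (limma adjusted p = 0.299) and without the filter on dim probes (limma adjusted p = 0.0572), and the LIM call when LIM arrays were fitted alone (limma adjusted p = 0.0558) or when the test of the study's methods was used. The beef minus HF call was kept under all alternatives run for it, with limma adjusted p from 0.000249 to 0.0133.

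IGFBP3, the main carrier of both ligands in the circulation, was higher in beef cells on 7 of 8 arrays but did not pass the threshold. On the LIM arrays its log2 ratio was 0.67, -0.59, 0.30, and 1.58, and on the HER arrays 0.37, 1.46, 0.52, and 0.55. LIM array 2 went the other way, and LIM array 4 gave the largest ratio. The level itself varied widely among cultures. LIM cells gave 2707, 1996, 1970, and 21872, and the HF cells beside them 1706, 3005, 1595, and 7308. On LIM array 4 both channels were brighter than any channel of the same colour on the other LIM arrays. HER cells gave 1487, 5447, 1275, and 5012, against 1153, 1984, 890, and 3430 in HF cells, and the groups overlapped on both slides. The mean difference was 0.49 ± 0.90 in LIM (SD, n = 4, limma adjusted p = 0.258) and 0.72 ± 0.50 in HER (SD, n = 4, limma adjusted p = 0.125). Beef minus HF was 0.61, with a 95% confidence interval of 0.092 to 1.12, and just missed the adjusted threshold (limma adjusted p = 0.0538). Of the alternatives run for it, 6 called it, the unadjusted p among them, and 14 did not (limma adjusted p up to 0.134). It passed, for example, with arrays centred on their median (limma adjusted p = 0.0407). It also passed without LIM replicate 2, the only array with a ratio below 0 (limma adjusted p = 0.0154).

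IGFBP6, a binding protein that prefers IGF2 over IGF1, showed no uniform direction. Its log2 ratio was 0.58, 0.34, 0.97, and -1.06 on the LIM arrays and 1.48, -0.053, 1.28, and -0.17 on the HER arrays. HF cells were brighter on array 4 of both breeds and on HER array 2, where 1 of the 2 spots carried an outlier mark and was left out. LIM cells gave 26051, 35255, 41061, and 21028, against 17410, 27959, 21023, and 43716 in HF cells. HER cells gave 39773, 18589, 33397, and 21488, against 14245, 19280, 13753, and 23945. Beef and HF channels overlapped on both slides. The mean difference was 0.21 ± 0.88 in LIM (SD, n = 4, limma adjusted p = 0.694) and 0.63 ± 0.87 in HER (SD, n = 4, limma adjusted p = 0.241). The interval of beef minus HF, from -0.19 to 1.03, included both no difference and a doubling. Of the alternatives run for beef minus HF, 17 left IGFBP6 uncalled (limma adjusted p up to 0.447) and 3 called it. Without LIM replicate 4, the array with its lowest ratio, beef minus HF was 0.63 and passed (limma adjusted p = 0.0497).

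The arrays numbered 4 thus carried the lowest ratio of IGF2R, IGFBP4, and IGFBP6 in both breeds, and the lowest ratio of IGFBP2 and IGF2 in LIM only. HF-channel intensity of IGF2R, IGFBP3, IGFBP4, and IGFBP6 was highest on array 4 of each slide. How many of all tested probes behaved in this way was not counted, so the pattern is not shown to be particular to these genes. On the same arrays the summed fibroblast and connective tissue markers were also highest in HF cells, at 227804 on the LIM slide and 155495 on the HER slide, against at most 110325 and 97984 on the others. The sums were carried by the collagens, and 6 of the 9 genes (COL1A1, COL1A2, COL3A1, DCN, LUM, and THY1) were highest there on both slides, while PDGFRA and TCF21 were lowest there on both. DCN is given by its brighter probe, whose log2 difference from HF was 1.89 in LIM and 1.36 in HER. Its other probe gave -0.40 and -0.29 and was called in neither breed. The HF sums of the myoblast markers were 59528 and 39497 against at most 22865 and 21386. Of these 6 genes, MYF5, MYOD1, NCAM1, and ITGA7 were highest there on both slides, CDH15 on the LIM slide only, and DES on neither. Also highest there on both slides were 3 of 5 adipocyte markers, ACTA2 of 5 smooth muscle markers, and MYL1 of 8 differentiating muscle markers. CLDN5 of 3 endothelial markers and CD14 of 2 leukocyte markers were lowest there on both slides. Which HF bull stood on which array was not stated in the sources used here, so whether both arrays held the same HF culture was not tested. Without both arrays, a setting chosen after these values were seen, beef minus HF had 4 of 6 genes called. The addition was IGFBP6, at 0.77 (limma adjusted p = 0.0252), whose lowest ratio in each breed lay on the arrays left out. With this setting, 7697 of all 17622 probes were called, 3558 of them higher, against 6722 called in the reported fit.

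The beef breeds were also compared with each other through their ratios to HF. None of the 6 genes was called for LIM minus HER, where 0.233% of all probes were called in either direction. The differences were 0.43 for IGF2, 0.37 for IGF2R, 0.13 for IGFBP2, -0.23 for IGFBP3, 0.16 for IGFBP4, and -0.43 for IGFBP6, and limma adjusted p lay between 0.668 and 0.901. The intervals were wide. That of IGF2R ran from 0.654-fold to 2.55-fold, that of IGFBP2 from 0.631-fold to 1.90-fold, and that of IGFBP4 from 0.573-fold to 2.17-fold. A doubling lay inside the intervals of IGF2R and IGFBP4 and outside that of IGFBP2. This contrast also holds any dye bias and slide difference.

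**Figure D3:**
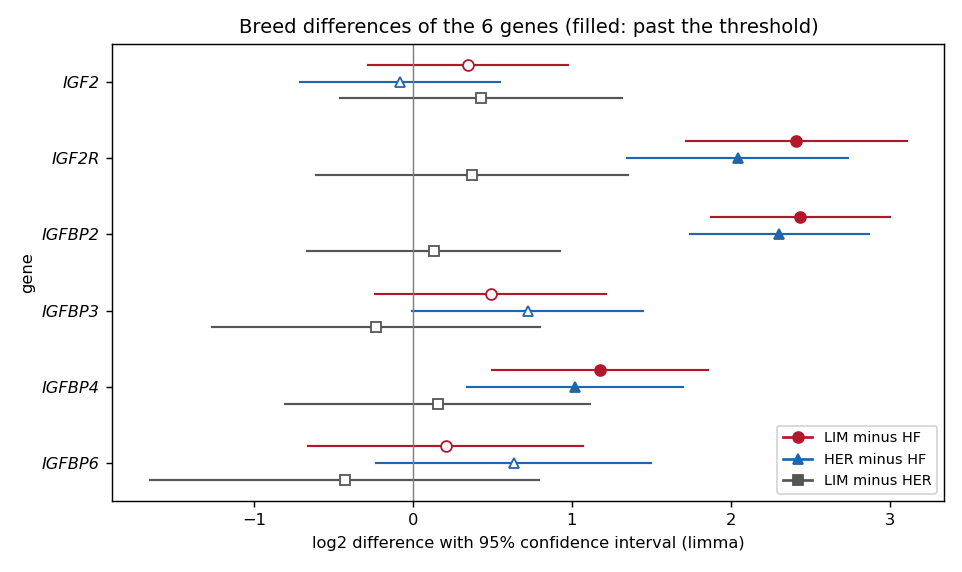
Mean log2 differences of the 6 genes with their 95% confidence intervals from limma. Red circles are LIM minus HF, blue triangles HER minus HF, and grey squares LIM minus HER, and filled symbols passed the threshold of adjusted p and fold change. IGF2R, IGFBP2, and IGFBP4 are filled in both beef breeds, and every LIM minus HER interval includes 0.

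Beyond the 6 genes, 68 genes of the pathway were listed, of which 29 had a matched probe and 27 could be tested. In LIM, 5 of the 27 were called higher and 2 lower, and in HER 2 were called higher and 2 lower. A second, dimmer probe of RICTOR, a gene counted by its brighter probe, was also called higher in LIM (1.59-fold, limma adjusted p = 0.0326), while the brighter one missed the fold threshold (1.29-fold, limma adjusted p = 0.0265). These shares can be read against the 16.1% and 18.3% of all probes for LIM and the 10.4% and 14.0% for HER given above. In both breeds, 2 of the 27 genes were higher, CTSD and RPS6, and 1 was lower, MLST8, while 7.55% of all probes were higher in both and 9.31% lower. For beef minus HF, CTSD, RPS6, RHEB, and STAT5A were higher, and MLST8, NRAS, and PIK3R3 were lower, which made 4 and 3 of 27. Of all probes, 17.7% were called higher and 20.4% lower in that contrast. Whether the pathway counts differ from these shares was not tested. Of the 20 alternatives run for this contrast, the call was lost in 10 for STAT5A, 8 for NRAS, 5 for RHEB, 4 for PIK3R3, 1 for RPS6, and 0 for CTSD and MLST8. For NRAS and RHEB only the fold fell below 1.3, since limma adjusted p stayed at most 0.027 and 0.0323 with every setting. Single arrays that ended a call when left out were HER replicate 1, 3, or 4 and LIM replicate 1, 2, or 3 for STAT5A, HER replicate 3 and LIM replicate 4 for NRAS, and HER replicate 1 or 4 and LIM replicate 2 or 3 for RHEB. The insulin receptor substrates and most adaptors had no matched probe, so the step just below the receptor was represented by SHC1 alone among the receptor adaptors, and neither of its probes was called in any of these comparisons. IGFBP1 and the adaptor gene GRB14 were well above background in 0 of 16 channels and were not tested.

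CTSD encodes cathepsin D, a lysosomal aspartic protease that can cleave IGF binding proteins and is sorted to the lysosome by mannose 6-phosphate receptors. Its log2 ratio was 2.67, 1.77, 2.56, and 1.13 on the LIM arrays and 1.81, 2.12, 1.90, and 0.96 on the HER arrays. As for IGF2R, all 8 arrays were above 0 and array 4 gave the smallest ratio in each breed. The pattern was not particular to this pair, since the markers MYF5, ITGA7, COL1A1, COL1A2, COL3A1, and LUM showed it too. The difference was 2.03 ± 0.72 in LIM (SD, n = 4, limma adjusted p = 0.00135) and 1.70 ± 0.51 in HER (SD, n = 4, limma adjusted p = 0.00631). The metalloprotease gene ADAM12, the other tested member of the protease list, differed by -0.047 in LIM and -0.038 in HER and was not called.

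Among 13 tested genes of the PI3K, AKT, and mTOR branch, RPS6 and MLST8 were called in both breeds and moved in opposite directions. RPS6, which encodes the ribosomal protein phosphorylated by S6 kinase, was higher by 0.82 ± 0.19 in LIM (SD, n = 4, limma adjusted p = 0.00155) and by 0.53 ± 0.18 in HER (SD, n = 4, limma adjusted p = 0.015). The HER value turned to -0.031 with normexp correction on the measured backgrounds. MLST8, a subunit of both mTOR complexes, was lower, at -0.89 ± 0.031 in LIM (SD, n = 4, limma adjusted p = 0.00141) and -0.49 ± 0.30 in HER (SD, n = 4, limma adjusted p = 0.0241). All 8 arrays lay above 0 for RPS6 and below 0 for MLST8. In HER, the call of RPS6 was lost without HER replicate 1, 2, or 3 (limma adjusted p from 0.0515 to 0.067) and that of MLST8 without HER replicate 1 or 2 (limma adjusted p = 0.0969 and 0.102). The mTOR activator gene RHEB was called in LIM at 0.40 (limma adjusted p = 0.0443) and was 0.38 in HER (limma adjusted p = 0.0634). The LIM call of RHEB was lost without HER replicate 2 or 4 or LIM replicate 2, 3, or 4. The PI3-kinase subunit gene PIK3R3 was called only in the mean of both, at -0.59 (limma adjusted p = 0.0168), on a probe well above background in 13 of 16 channels. It was -0.054, -0.10, and -0.14, without a call, with the 3 settings that used loess in place of the scanner's ratio (limma adjusted p from 0.0702 to 0.263).

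Of the growth hormone axis, the transcription factor gene STAT5A was called in LIM, at 0.99 (limma adjusted p = 0.0131), and stood at 0.015 in HER (limma adjusted p = 0.968). The STAT5A probe was dim, being well above background in 12 of 16 channels, and the LIM difference was at most 0.30 with the loess settings. GH1 was called lower in HER, at -0.76 (limma adjusted p = 0.0163), on a probe well above background in 9 of 16 channels, and was -0.044 to -0.12 with those settings. Among 4 tested genes of the RAS and MAP kinase branch, the small GTPase gene NRAS was called lower in LIM, at -0.57 (limma adjusted p = 0.012), and was -0.23 in HER without a call. MAP2K1, which encodes a kinase of the same branch, was called higher in LIM, at 0.47 (limma adjusted p = 0.0185), and was -0.37 in HER (limma adjusted p = 0.0573). Leaving out 1 array ended the LIM calls of STAT5A (LIM replicate 1 or 3) and MAP2K1 (LIM replicate 1 or 2) and the HER call of GH1 (HER replicate 1 or 4). The genes called in 1 breed only were named here after their values were seen.

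**Figure D4:**
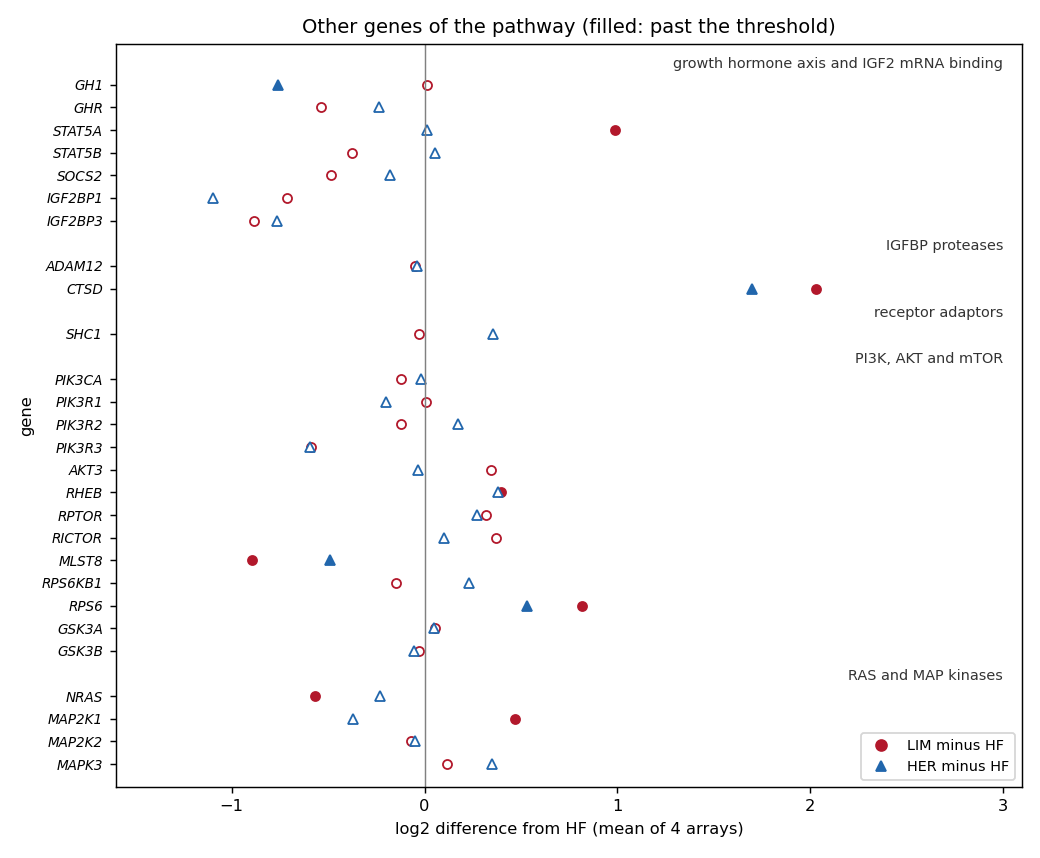
Mean log2 difference from HF of the 27 tested pathway genes outside the 6, grouped by list. Red circles are LIM minus HF and blue triangles HER minus HF, each the mean of 4 arrays, and filled symbols passed the threshold. CTSD lies furthest to the right in both breeds, MLST8 is filled on the left in both, and most genes lie near 0 with open symbols.

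For each gene called in beef minus HF, the named genes whose log2 ratios ran most nearly in parallel over the 8 arrays were looked up among 6753 others. For IGF2R these were CD99L2, which encodes a membrane protein, and ATP6AP2, an accessory subunit gene of the lysosomal proton pump, with Pearson r of 0.990 and 0.989. CD99L2 was 1.69 and ATP6AP2 1.19 in beef minus HF (limma adjusted p = 0.000284 and 0.000935). IGFBP4 ran closest to the helicase gene DHX32, at an r of 0.973, and the Golgi membrane gene YIPF2, at an r of 0.966. Neither of these was called in beef minus HF, at -0.33 and -0.17, so a likeness in the order of arrays came with another mean level. IGFBP2 had no such close partner, the nearest being the iron-sulfur scaffold gene ISCU, at an r of 0.871, and the sirtuin gene SIRT4, at an r of 0.869. These coefficients describe 8 arrays that share slides, dyes, and the HF reference, and they are the highest values of a search.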

How the data were processed

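RNA of LIM or HER and HF muscle cells was measured on 8 two-colour Agilent bovine arrays, with breed and dye taken from the sample labels. The authors deposited Feature Extraction 10.7.3.1 output (array build HGSC Btau_3.1) with spot intensity, processed intensity, local background intensity, and marks of each spot, and the software's log10 ratio, red divided by green, which includes its background and dye correction. The deposited series table holds the same log10 ratio.

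The log10 ratio was turned to log2 beef over HF. Control spots were dropped, as were those with an outlier mark, and replicate spots were averaged. Of 21475 probes, 17622 were tested, each well above background in 4 or more of the 16 channels. The share of probes well above background was 68.8% to 85.2% per channel, no spot was saturated, and HER replicate 3 was the dimmest array. Probes were named through RefSeq accessions on assembly ARS-UCD2.0 (8297 probes), without coordinates. All 8 arrays were fitted together with limma 3.58.1 in R 4.3.3, with a mean per comparison, after tests on simulated data. The study's methods set p at 0.05 or less and fold change at 1.3 or more and name no adjustment, and Benjamini-Hochberg adjustment was used here. The number of arrays limits the precision. The IGF genes, the lists, and the tests were chosen with earlier results of these data known. All matched IGF genes, pathway genes called in both breeds, and the 2 genes most like each called gene (symbols starting with LOC left out) were named. The brightest of several probes led. One pathway gene is not reported here. Alternatives covered background correction, centring, filters, tests, array weights, pairing, and omission of arrays.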

Additional observations from a re-analysis of the deposited data

Results flagged for a closer look

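In 2 of the 12 sets of 4 arrays, 1 array lay far from the others for its set's range. IGFBP3 gave a log2 ratio of 1.46 on HER replicate 2, while the other HER arrays lay between 0.37 and 0.55. IGFBP4 gave -0.067 on LIM replicate 4, while the other LIM arrays lay between 1.44 and 1.74. The gap to the nearest array was 0.833 and 0.837 of the whole range, just above the critical value of 0.829. Chance alone would mark about 1 in 20 sets.

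MAP2K1 was above 0 on all 4 LIM arrays and below 0 on all 4 HER arrays. The test of the difference, LIM minus HER, gave 0.84 and did not pass (limma adjusted p = 0.103), and dye orientation and slide changed along with the breed.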

How the results depend on the processing

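The calls of IGF2R and IGFBP2 in LIM were lost only with the methods' t-test after adjustment (adjusted p = 0.0643 and 0.0574), and in HER only with that test (0.088 and 0.0761) and with normexp on measured backgrounds (0.179 and 0.29). For both genes beef minus HF passed under every alternative run. With the methods' t-test after adjustment, 1003 probes were called in LIM and 2 in HER, with 0 of the 6 genes in each, and at an unadjusted p 5070 and 4822 probes were. IGFBP4 in LIM missed the latter too. Normexp on measured backgrounds gave 0 probes and 0 of the 6 genes in HER (4302 and 3 in the reported fit) and 3289 probes in beef minus HF (6722 reported). Leaving out an array gave 3796 to 7010 probes in LIM (lowest without LIM replicate 3), 1527 to 5437 in HER (lowest without HER replicate 2, with 1576 without HER replicate 1 and 2667 without HER replicate 3), 5855 to 7458 in beef minus HF, and 1 to 14 in LIM minus HER. Of the 6 genes, 2 to 3, 2 to 3, 3 to 4, and 0 were then called. In LIM minus HER, 41 probes were reported, 0 with normexp on measured backgrounds, with the stricter filter, or with the replicate block, 1 with normexp on replaced backgrounds, without background correction, or without the arrays numbered 4, 76 without a filter, 224 with array weights, and 2480 at an unadjusted p. With loess and replaced backgrounds, calls split into 1633 higher and 1346 lower in HER (1833 and 2469 reported) and 2471 and 2037 in beef minus HF (3127 and 3595 reported).

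Signs turned for small differences. IGFBP6 in LIM was -0.046 without LIM replicate 3 (up to 0.63 without other arrays). IGF2 in HER was 0.0011 with array weights, 0.16 without HER replicate 1, and 0.00018 without HER replicate 3 (down to -0.29 without other arrays). RPS6 in HER was -0.031 with normexp on measured backgrounds. In LIM minus HER, IGFBP2 was -0.040 with normexp on replaced backgrounds, -0.046 without HER replicate 1, and -0.12 to 0.35 over all arrays left out, lowest without LIM replicate 3. IGFBP3 was 0.027 with normexp on measured backgrounds, 0.013 without HER replicate 2, and -0.60 to 0.13 over all arrays left out, highest without LIM replicate 2, and IGFBP4 was -0.031 to 0.57, lowest without LIM replicate 2. The mean log2 brightness ratio over 8 arrays from median signals minus local background, which carries no dye correction, was 0.94 for IGF2, 3.05 for IGF2R, 1.45 for IGFBP3, and 1.92 for IGFBP4, while the median of all tested probes was itself 0.69.

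Replicate numbers were not taken to pair the arrays, since same-numbered LIM and HER arrays deviated with r of -0.24, 0.13, 0.30, and 0.54 and pair 1 was below 0.1. The arrays numbered 4 correlated best with each other, those numbered 1 and 2 did not, and whether some numbers mark a shared HF culture was not tested. The replicate block gave 6357 probes in LIM, 4304 in HER, and 7012 in beef minus HF, and added IGFBP6 to beef minus HF (adjusted p = 0.0455). The methods' t-test and the fit of 1 comparison alone were not run for contrasts that need both. A mean over several probes was not run, since each of the 6 genes had 1. Causes of these shifts were not tested.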
